A study of Mus musculus with 11 samples.

Results

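The cells described here were colon macrophages (CMs) carrying transcripts of Ms4a1, the gene of the B cell surface protein CD20, in the Zeb2KO colon library. They were chosen on measured values. A cell counted as a mac when it held 5 or more unique transcript counts (UMIs) of the complement genes C1qa, C1qb and C1qc together and none of Cd79a, a chain of the B cell receptor. Cells with 1 or more Ms4a1 UMIs then formed the Ms4a1-expressing CMs, and cells with no Ms4a1 UMI in which Cd74 made up 1% or more of all UMIs formed the comparison group, called the other Cd74-high CMs. Of 4390 cells in the library, 4370 met the C1q condition, and 78 of those had a Cd79a UMI and were left out. The remaining 4292 cells held 448 Ms4a1-expressing CMs and 1351 other Cd74-high CMs, while 2493 cells met neither definition. The whole series held 51712 cells in 11 libraries.

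The study asked which genes depend on the transcription factor ZEB2 in macs of 5 tissues. The Zeb2KO CMs came from Fcgr1-crexZeb2fl/fl mice and the WT CMs from littermate Zeb2fl/fl mice, both on a C57BL/6 background, and both were sorted from the colon lamina propria as live CD45+ CD64+ F4/80+ cells lacking Ly6C, Ly6G and SiglecF. Both groups carried the floxed Zeb2 alleles and only the first carried the CRE recombinase. The CRE is driven from Fcgr1, the CD64 gene, and according to the study it also acts in some B cells, T cells and dendritic cells (DCs), so the knockout was not limited to macs. Mice were 6 to 8 weeks old, the default age in the methods, and the number pooled per library is not given in the labels. Each group was 1 library. Cells of a library are not replicates, so no test was possible, and every interval below covers counting error only.

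CD20 is a membrane protein of the MS4A family, best known on B cells, where it is the target of therapeutic antibodies. ZEB2 is a zinc finger repressor that binds E-box motifs. In the adult colon most macs are replaced continually by blood monocytes, which lose CCR2 and Ly6C and gain CX3CR1 and scavenging genes as they mature. Cd74 encodes the invariant chain that carries MHC class II molecules to the endosome.

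The values that chose the cells are given first, as a description. Of the 448 Ms4a1-expressing CMs, 228 held 1 Ms4a1 UMI, 74 held 2, 92 held 3 to 5 and 54 held 6 or more, with 27 in the highest cell. Their Ms4a1 level was 269 UMIs per 1000000 UMIs of the group (CPM), and Ms4a1 was 0 in the comparison group by the rule. The Cd74 condition was not applied to the Ms4a1-expressing CMs, and 73 of them lay below 1% Cd74, 3 of these between 0.9% and 1%. Just above that limit, 44 of the other Cd74-high CMs held 1% to 1.1% Cd74, and 52 cells of neither group held 0.9% to 1%. Only 2 Ms4a1-expressing and 17 other Cd74-high CMs had between 5 and 9 C1q UMIs, and 19 cells of the library fell just short with 1 to 4.

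Depth was alike in the groups. The Ms4a1-expressing CMs held 4423745 UMIs in all, with a median of 8989.5 UMIs and 2328 genes per cell, and the other Cd74-high CMs held 13552956, with medians of 9160 UMIs and 2420 genes. As a WT reference, the rule of the comparison group took 2747 cells of the WT CMs library (28781541 UMIs, a median of 9954 per cell). The median share of Cd74 was 2.62% of UMIs in the Ms4a1-expressing CMs, 2.71% in the other Cd74-high CMs and 3.28% in the WT reference. C1q took a median of 0.993%, 1.59% and 1.83% of UMIs in the same order, and 12.3%, 10.9% and 2.51% of the cells had C1q below 0.5% of their UMIs. The 2 Zeb2KO groups thus held a like share of cells with little C1q, above that of the WT reference.

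An Ms4a1 UMI was found in 10.4% of the 4292 Zeb2KO cells (exact binomial 95% interval 9.54 to 11.4) and in 8 of 4919 WT cells that met the same conditions, or 0.163% (0.0702 to 0.320). Within the Zeb2KO library the share was 21.7% (19.8 to 23.7) among cells with 1% or more Cd74 and 2.84% (2.24 to 3.56) among the rest, whose median UMIs per cell were 9169 and 7314. With every cell thinned to 3000 UMIs, the shares were 13.1% (11.6 to 14.8) and 1.64% (1.17 to 2.23), so Ms4a1 UMIs were concentrated in the Cd74-high cells at equal depth too. The fall from 21.7% to 13.1% also shows that Ms4a1 can be missed in a cell that holds it. The other Cd74-high CMs may therefore include Ms4a1-expressing cells without a UMI. Their number, and their part in levels of that group between the Ms4a1-expressing CMs and WT, was not tested. Fibroblast-like cells of the same library with no Csf1r UMI, a type that should not express Ms4a1, gave 2 of 80 cells with a UMI (2.5%, interval 0.304 to 8.74, median 6285.5 UMIs). Their median of 10 C1q UMIs means that most also met the C1q condition for macs, and the fibroblast-like cells under it were too few to limit the background, with 0 of 10 (interval up to 30.8). No expression is read from the share in the Cd74-low cells, and the part of free RNA in either share was not tested. The Ms4a1-expressing cells under 1% Cd74 are 73 of the 448 Ms4a1-expressing CMs, and with 1% Cd74 required of both groups 103 genes were called higher and 119 lower. Of the library's cells with Cd79a, 21 also held Ms4a1 and were outside both groups.

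The upstream windows of 4 genes are printed because ZEB2 is known to bind the letters CACCTG and their reverse complement CAGGTG, and because they belong to the genes with these letters among the 20 furthest above and the 20 furthest below the comparison group (at least 50 CPM in the higher group). Each window holds the 250 bases before the start of the gene in RefSeq (GRCm38.p6), 5′ to 3′ on the strand of the gene, with the motif in capitals. Ltb lies at chr17:35194257-35194506 on the plus strand with the motif beginning 66 bases before the start, AF067061 at chr13:120262845-120263094 on the plus strand with the motif 238 bases before it, Spp1 at chr5:104434861-104435110 on the plus strand with the motif 98 bases before it, and H2-M2 at chr17:37483555-37483804 on the minus strand with the motif 233 bases before it.
Ltb: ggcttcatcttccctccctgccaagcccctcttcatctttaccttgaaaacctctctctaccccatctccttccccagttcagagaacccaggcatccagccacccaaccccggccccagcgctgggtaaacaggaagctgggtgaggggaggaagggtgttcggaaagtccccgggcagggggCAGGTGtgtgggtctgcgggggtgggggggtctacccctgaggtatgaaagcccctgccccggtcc
AF067061: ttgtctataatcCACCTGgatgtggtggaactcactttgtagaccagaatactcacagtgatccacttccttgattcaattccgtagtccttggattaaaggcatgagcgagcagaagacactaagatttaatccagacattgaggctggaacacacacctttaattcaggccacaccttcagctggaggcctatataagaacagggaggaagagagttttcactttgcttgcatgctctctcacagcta
Spp1: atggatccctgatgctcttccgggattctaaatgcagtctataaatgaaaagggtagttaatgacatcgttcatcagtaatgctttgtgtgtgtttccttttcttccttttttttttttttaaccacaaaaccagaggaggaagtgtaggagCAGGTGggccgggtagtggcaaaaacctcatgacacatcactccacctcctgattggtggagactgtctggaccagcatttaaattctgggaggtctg
H2-M2: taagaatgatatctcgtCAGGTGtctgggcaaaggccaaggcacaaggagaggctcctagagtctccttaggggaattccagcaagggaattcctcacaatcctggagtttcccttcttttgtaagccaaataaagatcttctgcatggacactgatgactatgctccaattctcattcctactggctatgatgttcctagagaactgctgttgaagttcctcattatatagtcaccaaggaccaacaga
In GENCODE, Ltb starts earlier than in RefSeq, at 35194439, so that part of its window with the motif lies inside the gene there. The first 3 genes were higher and H2-M2 was lower in the Ms4a1-expressing CMs. A window was at hand for 15 of the 20 named higher genes, 3 of which held the motif, and for 14 of the 20 named lower genes, 1 of which did. Over all 87 higher genes, 14 of 65 windows held it (21.5%), over all 69 lower genes 8 of 54 (14.8%), over the genes considered 540 of 3843 (14.1%) and over all RefSeq windows 4620 of 27025 (17.1%). A match is a description of letters and not a binding site.

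To ask what else set the Ms4a1-expressing CMs apart, UMIs were summed over each group and expressed as CPM. A gene was considered when the higher group had 20 CPM or more, and it was called at a log2 ratio of 1 or beyond in either direction, with 1 added to both CPM values. Of 4935 genes considered, 156 were called (3.16%), with 87 higher (1.76%) and 69 lower (1.4%) in the Ms4a1-expressing CMs. The genes of the rule were not counted. Because Ms4a1 chose the cells, genes that vary together with it within this library had to differ, and the calls are a description of the cells so chosen. The median log2 ratio of all genes considered was 0.02, and the 98 ribosomal protein genes had a median of 0.21 with none called. The same definition set 101 of 4875 genes (2.07%) apart between the other Cd74-high CMs and the WT reference and 366 of 5016 (7.3%) between the Ms4a1-expressing CMs and the WT reference. These comparisons share groups, so levels are given side by side below and not as an overlap.

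**Figure D1:**
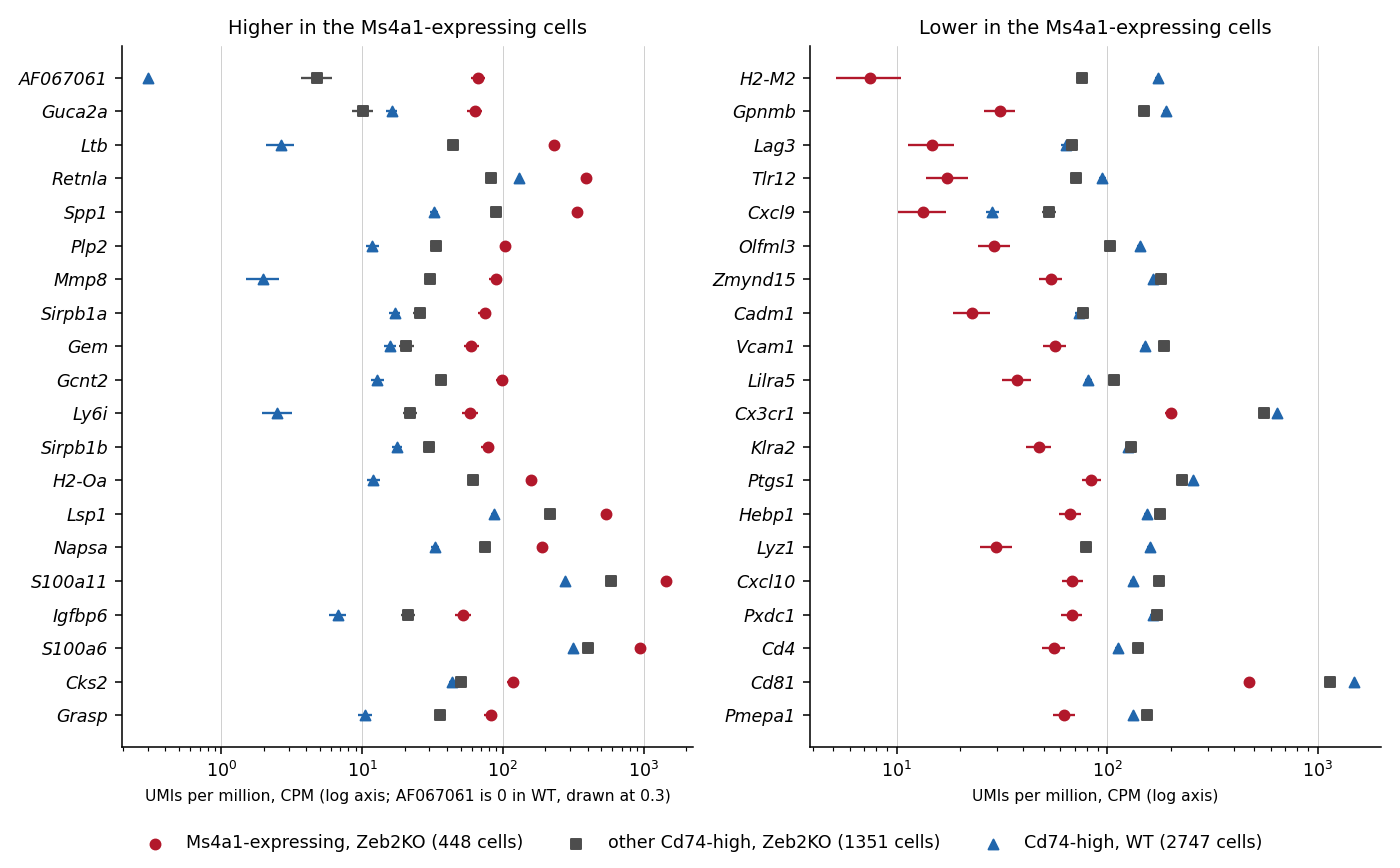
Levels in CPM on log axes of the 20 genes with the highest and the 20 with the lowest log2 ratio between Ms4a1-expressing CMs (circles) and other Cd74-high CMs (squares), with the WT reference (triangles); bars are exact Poisson 95% intervals. Every circle lies to the right of its square in the left panel and to the left of it in the right panel, as the choice of genes fixes, and AF067061 had 0 UMIs in the WT reference.

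The targeted gene itself was higher in the Ms4a1-expressing CMs. Zeb2 measured 695 CPM (670.3 to 719.7) there, 460.3 (449 to 472) in the other Cd74-high CMs and 355 (348 to 362) in the WT reference, a log2 ratio of 0.59 between the Zeb2KO groups, which was below the call. The 3′ assay counts transcripts of the recombined allele as well, so Zeb2 UMIs do not show which cells lost the protein. The study took Cd74-high colon macs with higher Zeb2, Ms4a1 and Siglecf as Zeb2-/-. Those CRE+ cells that clustered with the control cells it took as presumably Zeb2+/-. Its groups were clusters and not the groups used here. Zeb2KO therefore names the library and not the state of each cell. Zeb2os, the antisense transcript at the same locus, measured 33.9, 63.5 and 67.3 CPM in that order, with a log2 ratio of -0.89. Zeb2 and Zeb2os thus lay on opposite sides, though whether the counting used the strand is not given in the sources used here.

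The mac identity of both groups was checked against Csf1r, Adgre1, Cd68, Aif1, Mertk and Fcgr1. Csf1r, the receptor of the mac growth factor CSF1, measured 493 CPM in the Ms4a1-expressing CMs, 748 in the other Cd74-high CMs and 883 in the WT reference, and Adgre1, which encodes F4/80, measured 439, 523 and 557. Cd68 gave 491, 576 and 599 CPM and Aif1 1401, 1542 and 1436, with smaller gaps between the groups than for Csf1r. Mertk was low in all 3 groups at 14.0, 18.9 and 17.6 CPM, and Fcgr1, which encodes the CD64 used in the sort, measured 87.7, 116 and 182 CPM. All 6 genes were lowest in the Ms4a1-expressing CMs, and none was called. Lyz2, another mac marker set for this check, is given with the antimicrobial genes below. It was also lowest there and had the largest fall of these markers, just short of the call.

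Other B cell genes were low in both groups. The rule had left out cells with a Cd79a UMI, which in part sets these levels. Only 1 of the 15 B cell genes measured in this table reached 20 CPM, namely Bank1, with 39.8, 52.8 and 39.0 CPM in the Ms4a1-expressing, other Cd74-high and WT cells. The summed level of the list was 59.0, 78.6 and 102 CPM, and Pax5 and Fcmr were at 0 in the Ms4a1-expressing CMs. Cd79b, the partner chain of Cd79a, measured 6.78, 5.61 and 42.1 CPM. Plasma cell genes summed to 238, 264 and 276 CPM and T and NK cell genes to 28.0, 26.9 and 32.3, with Cd8a, Gzma and Gzmb at 0.

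**Figure D2:**
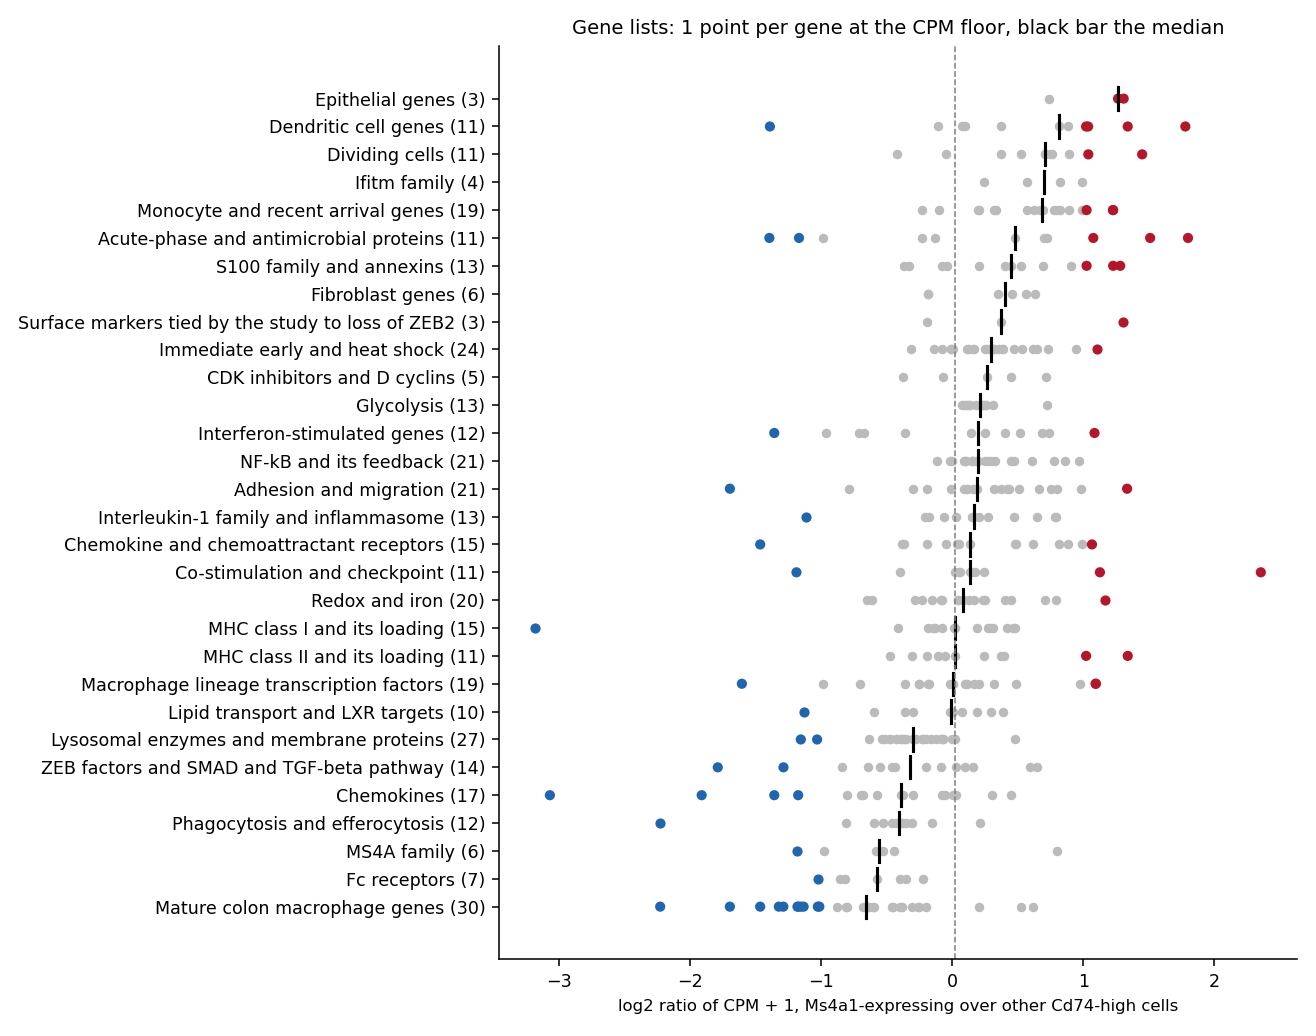
Log2 ratio of CPM plus 1 between Ms4a1-expressing and other Cd74-high CMs for each gene at the floor of 20 CPM, by gene list, with the number of genes in brackets; coloured points are called, grey points are not, black bars are list medians and the dashed line is the median of all genes considered (0.02). The mature colon mac genes lie lowest, with a median of -0.66, and the monocyte genes near the top, with a median of 0.68.

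Most genes of mature colon macs were lower in the Ms4a1-expressing CMs. Of 30 considered, 11 were called lower and none higher, with a median log2 ratio of -0.66, against 1.4% called lower over all genes. The 11 were Gpnmb, Vcam1, Cx3cr1, Cd4, Cd81, Ms4a7, Ccl12, Cd63, Apoe, Fcrls and Dnase1l3.

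Cx3cr1, the fractalkine receptor that marks resident gut macs, measured 201 CPM (188 to 215) in the Ms4a1-expressing CMs, 557 (544 to 569.6) in the other Cd74-high CMs and 643 (633 to 652) in the WT reference, a log2 ratio of -1.46 between the Zeb2KO groups. The comparison group stayed near WT and the Ms4a1-expressing CMs stood below both. A UMI of Cx3cr1 was found in 51.1%, 82.8% and 94.5% of cells. Apoe, the lipid carrier that was among the most abundant transcripts of these cells, measured 15666, 34361 and 39296 CPM, with a log2 ratio of -1.13. In single cells Apoe ranged from 44.2 to 350.0 per 10000 UMIs (10th to 90th percentile, median 96.7) in the Ms4a1-expressing CMs and from 46.7 to 654 (median 304) in the other Cd74-high CMs, so the groups overlapped and the lower summed level came with a lower middle of the distribution.

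The tetraspanins Cd81 and Cd63, which organise membrane and endosomal proteins, followed the same order. Cd81 measured 468, 1145 and 1488 CPM (log2 ratio -1.29), and Cd63 measured 410.1, 914 and 1035 (-1.15). Their relative Cd9 measured 149.9, 276 and 456 CPM, a log2 ratio of -0.88 that missed the call. Ms4a7, an MS4A family member typical of macs, measured 759, 1721 and 1827 CPM (-1.18). The family therefore held Ms4a7 lower in cells chosen for Ms4a1. Its other members at the floor were not called, among them Ms4a6b at -0.53, Ms4a6c at -0.58, Ms4a6d at -0.44 and Ms4a4c at 0.80. The 6 members considered had a median of -0.56, and only Ms4a4c was above 0.

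Cd4, which long-lived gut macs carry, measured 55.6, 141 and 112 CPM (log2 ratio -1.32). Vcam1, an adhesion molecule, measured 56.5, 185 and 151 (-1.70), and Gpnmb, a glycoprotein of lipid-laden macs, measured 31.0, 149 and 189.5 (-2.23), although 1 cell held 21.2% of the Gpnmb UMIs of the Ms4a1-expressing CMs. For Cd4 and Vcam1 the comparison group lay above WT and the Ms4a1-expressing CMs below it. Other members kept the sign without being called: Pf4 measured 1447, 2315 and 3116 CPM and the selenium transporter Sepp1 1439.5, 2245 and 2705.

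H2-M2, a nonclassical MHC class I gene, had the lowest ratio of all genes of 50 CPM or more. It measured 7.46 CPM (5.13 to 10.5) in the Ms4a1-expressing CMs, 75.7 (71.1 to 80.5) in the other Cd74-high CMs and 173 (169 to 178) in WT, a log2 ratio of -3.18. Only 33 UMIs stood behind the first value and 1026 behind the second, and 2.23%, 17.5% and 29.6% of cells held a UMI. The remaining 14 MHC class I genes considered were not called.

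Most genes of monocytes and of macs newly arrived from them had ratios above 0, though few were called. Of 19 considered, 3 were called higher and none lower, with a median of 0.68 and 17 above 0, against 1.76% called higher over all genes. The 3 were the calcium-binding S100a6 and S100a4 and the monocyte marker Ly6c2. The S100a4 call did not hold with TMM scaling (0.99), with 1% Cd74 required of both groups (0.92), in cells of 5000 to 10000 UMIs (0.45) or against all CMs without Ms4a1 (0.32), and in the last of these S100a6 was at 0.23. Ccr2, the chemokine receptor that brings monocytes into tissue, measured 116 CPM (107 to 127) in the Ms4a1-expressing CMs, 58.1 (54.1 to 62.3) in the other Cd74-high CMs and 141 (136 to 145) in WT, a log2 ratio of 0.99 just below the call. The Ms4a1-expressing CMs lay nearer to WT in Ccr2 than the comparison group did. The ratio differed with depth: it was 1.61 in cells of 10000 UMIs or more (92.8 against 29.7 CPM), 0.41 from 5000 to 10000 UMIs (156 against 117 CPM) and 0.48 below. Thinned to 3000 UMIs, 25.1% (21.1 to 29.4), 13.5% (11.7 to 15.4) and 23.5% (21.9 to 25.1) of cells had a Ccr2 UMI.

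Ly6c2 was low in every group at 31.2, 12.8 and 1.81 CPM, in a sort that removed Ly6C+ cells. Plac8, also a monocyte gene, measured 304, 189 and 62.3 CPM and was not called. Cd14 (399, 316 and 319 CPM) and Lgals3 (1035, 1112 and 1398 CPM), which monocytes and macs share, differed little.

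Among 13 genes of the S100 family and annexins, 3 were called higher and none lower, against 1.76% called higher over all genes. S100a11 measured 1435, 589.8 and 278 CPM (log2 ratio 1.28), S100a6 948, 404 and 313 (1.23) and S100a4 241, 118 and 83.6 (1.02). S100a11 was the broadest of these, with a UMI in 97.5%, 84.5% and 79.8% of cells.

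Lymphotoxin beta was found in most of the Ms4a1-expressing CMs. Ltb, a TNF family ligand through which lymphoid tissue inducer cells and B cells organise lymphoid structures, measured 229.7 CPM (216 to 244) in the Ms4a1-expressing CMs, 44.1 (40.7 to 47.8) in the other Cd74-high CMs and 2.64 (2.08 to 3.31) in WT, a log2 ratio of 2.35. The 3 groups fell in the same order by cells, of which 61.4%, 21.5% and 2.22% held a UMI, and no cell held more than 1.97% of the Ltb UMIs of the Ms4a1-expressing CMs. Of 11 co-stimulation and checkpoint genes considered, 2 were called higher and 1 lower, against 1.76% and 1.4% of all genes. Beside Ltb, the higher gene was Tnfsf9, the 4-1BB ligand, at 101, 45.5 and 27.0 CPM (1.13), and the lower one was Tnfsf13b, the B cell survival factor BAFF, at 14.2, 33.7 and 29.5 CPM (-1.19).

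Of 11 MHC class II genes considered, 2 were called higher, where 1.76% of all genes were, both of them chains of H2-O, which restrains peptide loading and is known mainly from B cells and DCs. H2-Oa measured 158 CPM (146 to 169.7), 61.7 (57.6 to 66.0) and 12.0 (10.8 to 13.3), with a log2 ratio of 1.34, and H2-Ob measured 57.6, 27.9 and 18.1 (1.02). Of the classical chains, H2-Ab1 measured 10825, 11645 and 13601 CPM and H2-Eb1 9584, 9464 and 11575. The comparison group had been chosen on Cd74, which varies with class II, and the Ms4a1-expressing CMs had not, so nothing is read from how near these levels were. With 1% Cd74 required of both groups the log2 ratios of H2-Ab1 and H2-Eb1 were 0.11 and 0.23. H2-DMb1, a chain of the molecule that H2-O restrains, measured 577, 715 and 794 CPM (-0.31), and Ciita, the class II transactivator, 48.6, 37.4 and 40.6 (0.37).

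Of 11 DC genes considered, 4 were called higher and 1 lower, with a median of 0.81, against 1.76% and 1.4% of all genes. In cells under 5000 UMIs H2-Oa (0.57), H2-Ob (0.50) and Kmo (0.37) were not called, 3 of the 4. The higher genes were Ffar2, a receptor for short-chain fatty acids, Kmo, an enzyme of tryptophan breakdown, and again H2-Oa and H2-Ob, so the lists share members. Ffar2 measured 49.5, 13.7 and 0.695 CPM (1.78) and Kmo 34.4, 16.2 and 9.52 (1.04). Cd209a, a lectin of monocyte-derived cells, was the lower gene at 7.46, 21.2 and 22.2 CPM (-1.39), and Ccr7, the receptor of migrating DCs, measured 33.5, 17.7 and 1.49 CPM (0.88). The list summed to 603, 385 and 287 CPM, with Clec9a at 0 in the Ms4a1-expressing CMs, and the part of DCs or of CRE activity in DCs in these values was not tested. Napsa, an aspartic protease, measured 188, 74.1 and 33.1 CPM (1.33) and Lsp1, an actin-binding protein of leukocytes, 542, 214 and 85.9 (1.33), with a UMI of Lsp1 in 87.1%, 53.2% and 35.5% of cells.

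Of 19 mac lineage transcription factors considered, 2 were called higher and 1 lower, with a median of 0.00, where 1.76% and 1.4% of all genes were called. Id2, an inhibitor of basic helix-loop-helix factors, measured 654 CPM (631 to 678), 306 (296 to 315) and 125 (121 to 129), with a log2 ratio of 1.10. The Id2 ratio was 0.67 in cells under 5000 UMIs, 0.84 from 5000 to 10000 and 1.29 in deeper ones, so the call held only in the last. Irf4 measured 47.9, 21.9 and 10.0 (1.09). Bhlhe41, a helix-loop-helix repressor, was lower at 7.46, 24.7 and 13.7 CPM (-1.60), and Cebpa, a factor of myeloid development, measured 74.6, 122 and 197 CPM without being called (-0.70). In the list of ZEB factors and the SMAD and TGF-beta pathway, with which ZEB2 interacts through SMAD proteins, none of 14 genes was called higher and 2 were lower. They were Olfml3, a secreted glycoprotein of tissue macs, at 29.2, 103 and 143 CPM (-1.79) and Pmepa1, a target and inhibitor of TGF-beta signalling, at 62.6, 154 and 133 CPM (-1.29). Tgfbr1, the type I receptor, measured 86.1, 135 and 161 CPM (-0.65).

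Of 11 antimicrobial and acute-phase genes considered, 3 were called higher and 2 lower, against 1.76% and 1.4% of all genes. The neutrophil collagenase gene Mmp8 measured 88.8, 30.5 and 1.98 CPM (log2 ratio 1.51), the lipocalin gene Lcn2, which withholds iron from bacteria, 119, 56.1 and 1.39 (1.08), and Pglyrp1, a peptidoglycan recognition protein, 40.5, 10.9 and 1.88 (1.80). Saa3, an acute-phase serum amyloid, measured 1246, 893 and 50.9 CPM, and Hp, haptoglobin, 40.7, 47.8 and 1.04. By the ratio of these levels, though not by their difference for Mmp8, Lcn2 and Pglyrp1, the groups of the Zeb2KO library were nearer to each other than to WT. Both were above it. The Saa3 ratio varied with depth, at 0.61 in cells under 5000 UMIs, 1.01 from 5000 to 10000 and 0.12 in deeper ones. On the lower side were Lyz1 at 29.6, 79.5 and 159.7 CPM (-1.39) and the copper oxidase gene Cp at 29.2, 66.8 and 35.6 (-1.17). Lyz1 and Lyz2 are near-identical copies whose reads can be split between them, and Lyz2 measured 8338, 16502 and 20722 CPM (-0.98).

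AF067061 had the largest ratio of all, at 66.9 CPM (59.5 to 75.0), 4.80 (3.70 to 6.11) and 0 in WT, a log2 ratio of 3.55. The WT count of 0 allows up to 0.128 CPM. It was found in few cells, 9.82% and 1.18% of the Zeb2KO groups, and 1 cell held 16.6% of its UMIs. Its function is not described in the files, and it lies at chr13:120263114-120264517 in the GENCODE annotation of mm10, which starts the gene later than RefSeq does. Plp2, a membrane proteolipid, measured 104, 33.3 and 11.8 CPM (1.62) and was found in 51.6%, 20.1% and 9.39% of cells. Sirpb1a (74.4, 25.7 and 17.1 CPM) and Sirpb1b (78.4, 29.9 and 17.7 CPM), signal regulatory proteins, were called higher too, but they are close copies whose reads cannot be separated with certainty.

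Chemokines were lower or alike. Of 17 considered, 4 were called lower and none higher, with a median of -0.39, against 1.4% called lower over all genes. The interferon-induced Cxcl9 measured 13.3, 52.9 and 28.5 CPM (-1.91) and Cxcl10 68.3, 176 and 133 (-1.36), both attracting activated T cells, and Ccl12, a CCR2 ligand, measured 225, 509 and 245 (-1.17). Ccl17 rested on 7 UMIs in the Ms4a1-expressing CMs and 280 in the other Cd74-high CMs. For the 3 genes named with their levels, the other Cd74-high CMs were the highest group, and the Ms4a1-expressing CMs lay below or near WT.

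Of 13 genes of the interleukin-1 family and inflammasome, 9 were above 0, as were 2661 of all 4935 genes, none was called higher and 1 was called lower, where 1.4% of all genes were. That gene, Il18bp, encodes a binding protein that neutralises IL-18 and measured 16.0, 36.0 and 13.9 CPM (-1.12). Without a call, Il1b measured 3363, 2149 and 1037 CPM (log2 ratio 0.65), its antagonist Il1rn 590.2, 341 and 121 (0.79) and its decoy receptor Il1r2 232, 135 and 29.2 (0.78). Ifitm1, an interferon-induced membrane protein, missed the call narrowly with 1543, 777 and 81.8 CPM (0.99). None of 21 genes of NF-kB and its feedback was called, though 18 were above 0. Lower without a call were all but 1 of the Fc receptors considered, with Fcgr3 at 366, 645 and 727 CPM and Fcgr4 at 139, 252 and 270.1. The exception, Fcrls, was called at 248, 506 and 406 CPM (-1.02).

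Beside Ms4a1, the study linked Siglecf, Epcam and other surface proteins with ZEB2 deficiency. The study chose this list on these samples, so it is not independent evidence. Of 3 genes at the floor, 1 was called higher, where 1.76% of all genes were. It was Epcam, with 26.9, 10.3 and 3.72 CPM (1.30), 24.4% of it from 1 cell, and with the highest cell of each group left out its ratio was 0.97. Siglecf was below the floor at 13.8, 4.06 and 0.869 CPM, in cells sorted as SiglecF-.

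Some calls rested on few cells. In the Ms4a1-expressing CMs 1 cell held 85.6% of the Guca2a UMIs, 65.6% of Phgr1 and 61.2% of Lgals4, all 3 epithelial transcripts, and without the highest cell of each group their log2 ratios were -0.11, -0.09 and 0.03. The epithelial list summed to 123, 49.0 and 69.8 CPM, and 2 of the 3 members considered were called higher, against 1.76% of all genes. Osteopontin, Spp1, measured 333, 89.7 and 32.5 CPM with 44.8% in 1 cell (1.88, or 1.12 without it). Retnla, a product of alternatively activated macs, measured 387, 82.1 and 129.8 CPM (2.22) with 28.5% in 1 cell, yet a UMI was found in 35.0% of the Ms4a1-expressing and 39.5% of the other Cd74-high CMs, so the higher sum came from few cells. Neutrophil genes summed to 192, 91.6 and 57.8 CPM, of which Mmp8 was the called member, with Retnlg, Camp, Ngp and Elane at 0, and fibroblast genes summed to 308, 256 and 318 CPM. Dividing-cell genes had a median of 0.71 with 2 of 11 called higher, Ube2c (31.6% in 1 cell) and Top2a, against the same 1.76%.

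Detection was also compared at equal depth. With cells thinned to 3000 UMIs (439, 1322 and 2684 cells deep enough), Ltb was found in 40.3% (35.7 to 45.1), 10.9% (9.26 to 12.7) and 0.671% (0.398 to 1.06) of Ms4a1-expressing, other Cd74-high and WT cells, and Lsp1 in 68.3%, 32.4% and 17.3%. Cx3cr1 was found in 29.2% (24.9 to 33.7), 67.1% (64.5 to 69.6) and 78.4% (76.7 to 79.9), Cd81 in 54.7%, 81.0% and 96.2%, and Zeb2 in 82.5% (78.6 to 85.9), 67.5% (64.9 to 70.0) and 62.9% (61.1 to 64.8). The unthinned shares of Zeb2 were 96.0%, 91.0% and 90.3%. Not every gene kept the order of its CPM: thinned Retnla was found in 14.1%, 15.1% and 9.80% of cells and thinned Ccr2 in 25.1%, 13.5% and 23.5%.

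**Figure D3:**
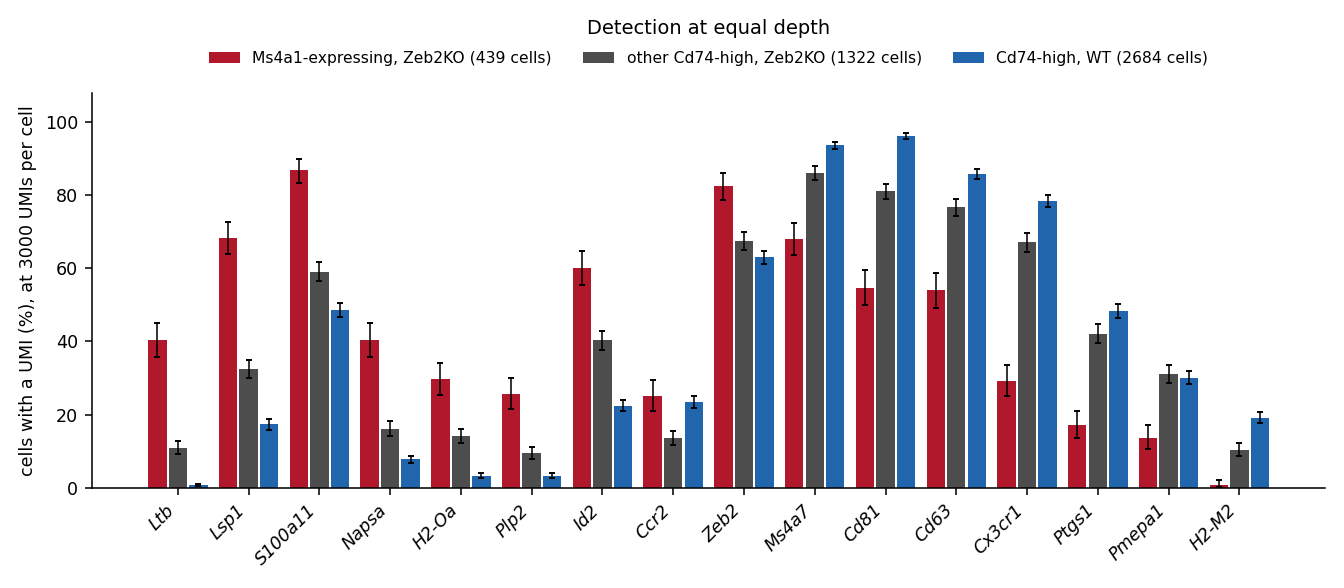
Percentage of cells with at least 1 UMI of each gene after thinning every cell to 3000 UMIs, in Ms4a1-expressing CMs (red), other Cd74-high CMs (grey) and the WT reference (blue); bars are exact binomial 95% intervals. From Ltb to Id2 and for Zeb2 the red bar is the tallest of the 3, from Ms4a7 to H2-M2 it is the shortest, and for Ccr2 the grey bar is the shortest.

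A single Ms4a1 UMI marks a cell less surely than several do, so levels were also compared by the number of Ms4a1 UMIs. These classes are cut on the gene that chose the cells, and the genes followed, apart from Zeb2, had already been called. A trend along the classes therefore describes the chosen cells and is no further support for the calls. Ltb measured 44.1 CPM in cells with none, 132 with 1, 247 with 2 and 349.9 with 3 or more, and S100a11 measured 589.8, 1082, 1494 and 1874. Id2 went from 306 to 539, 672 and 797 CPM and Lsp1 from 214 to 443, 492 and 694. Cx3cr1 fell along the same classes, from 557 to 263, 166 and 135 CPM, whereas Apoe (18152, 11451 and 14226 CPM with 1, 2 and 3 or more) and Cd81 (627, 258 and 351 CPM) were lowest in cells with 2. Zeb2 stayed between 669 and 762 CPM over these 3 classes. Deeper cells yield more Ms4a1 UMIs, and median depth was 8286, 8994.5 and 10279.5 UMIs in the 3 classes.

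**Figure D4:**
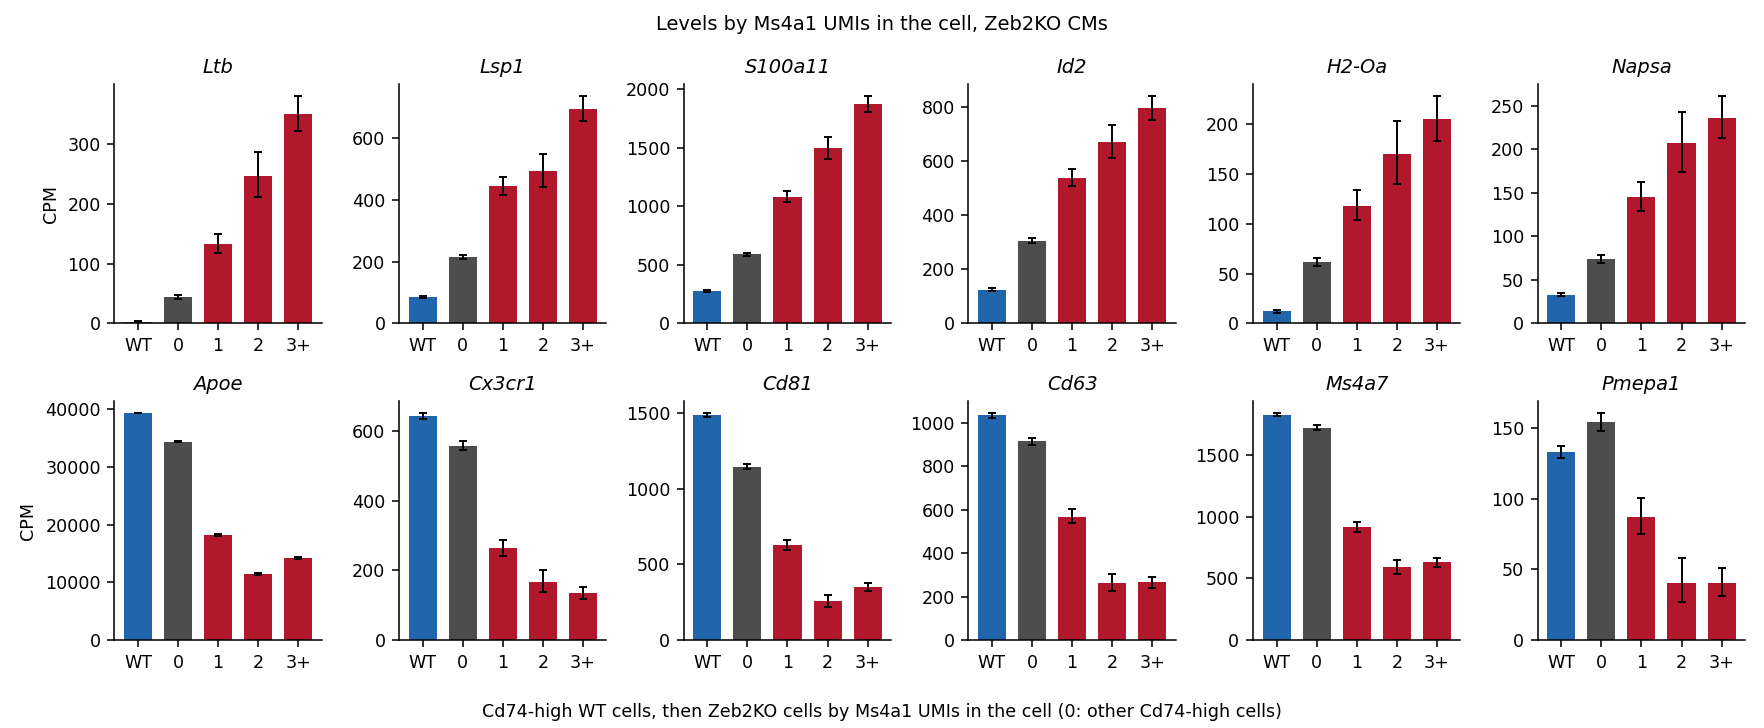
Levels in CPM of 12 genes, all called between the Zeb2KO groups, in the WT reference (blue), in the other Cd74-high CMs (0, grey) and in the Ms4a1-expressing CMs by the number of Ms4a1 UMIs in the cell (1, 2, and 3 or more, red); bars are exact Poisson 95% intervals. Ltb climbs from 132 to 349.9 CPM over the red bars and Cx3cr1 descends from 263 to 135 CPM.

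The rule was applied unchanged to the other Zeb2KO libraries, which it had not used. The labels give Fcgr1-crexZeb2fl/fl as the genotype of the Zeb2KO KCs as well, whereas the study names Clec4f-cre for the liver mice throughout. The mismatch is not explained. According to the methods, the KCs were also sorted on Clec4F without removing SiglecF+ cells. They were run on another sequencer and counted with another Cell Ranger version. Tissue, CRE, sort and run thus cannot be told apart in this comparison. The rule gave 1308 Ms4a1-expressing and 756 other Cd74-high Kupffer cells (KCs, the macs of the liver) and 608 and 60 spleen macs (SMs), against 16 and 1045 in WT KCs and 131 and 17 in WT SMs. Alveolar macs, with 34 and 26 cells, and microglia, with 43 and 707, had too few Ms4a1-expressing cells to compare. The contrast differed from that of the CMs in Cd74, since 644 of the 1308 Ms4a1-expressing KCs and 465 of the 608 Ms4a1-expressing SMs were under 1% Cd74 (73 of 448 in CMs), and no comparison cell was. In KCs, of 5271 genes considered, 4 were called higher (0.0759%) and 29 lower (0.55%). Of the 87 genes higher in the CMs, 40 could be considered in KCs and none was called higher, while 3 were called lower. Of the 69 genes lower in the CMs, 36 could be considered and 6 were called lower in KCs too, 8.70% of the CM list and 20.7% of the KC list. These were Cx3cr1, Cd63, Cd209a, Cxcl9, Mgl2 and Ctsf. With 1% Cd74 required of both groups, a setting chosen after seeing the data, 664 Ms4a1-expressing KCs were left. Of 5226 genes considered there, 10 were called higher (0.191%) and 50 lower (0.957%). The 6 genes just named were among the lower ones, and of the 87 higher CM genes 2 were called higher and 5 lower.

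Cx3cr1 measured 27.4 CPM in the Ms4a1-expressing and 109 in the other Cd74-high KCs (log2 ratio -1.95), and Cd63 measured 5.90 and 29.9 (-2.16). Both were low in KCs by comparison with CMs but on the same side. Ltb, at 46.6 and 23.1 CPM in KCs, had a log2 ratio of 0.98 just below the call, Plp2 one of 0.64 and Siglecf, at 286 and 161 CPM, one of 0.82. Apoe did not separate the KC groups, with 30821 and 30877 CPM (0.00), nor did Csf1r (1246 and 1259 CPM). Ccr2 was lower in the Ms4a1-expressing KCs, at 58.2 against 141 CPM (-1.26), on the other side from CMs. In the liver the study also described CRE+ KCs with Cx3cr1 and Ccr2 but without Siglecf and Timd4. It took them as putative Zeb2+/- KCs derived from monocytes. The part of such cells in the comparison group of the KCs was not tested. In SMs, where C1q took only 0.516% and 0.591% of UMIs and the comparison group was 60 cells, 532 of 6545 genes were called higher (8.13%) and 339 lower (5.18%). That comparison group held 199320 UMIs in all, so a gene near the floor rested on few UMIs there. How many of the SM calls are counting error was not tested, and nothing is read from their overlap with the CM calls. Of the 87 higher CM genes 44 could be considered in SMs, and of the 69 lower ones 41. The SM calls held 6 of the 87 higher CM genes (6.90%, or 1.13% of the SM list) and 6 of the 69 lower ones (8.70%, or 1.77%), while 3 of the higher and 4 of the lower CM genes were called on the opposite side.

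**Figure D5:**
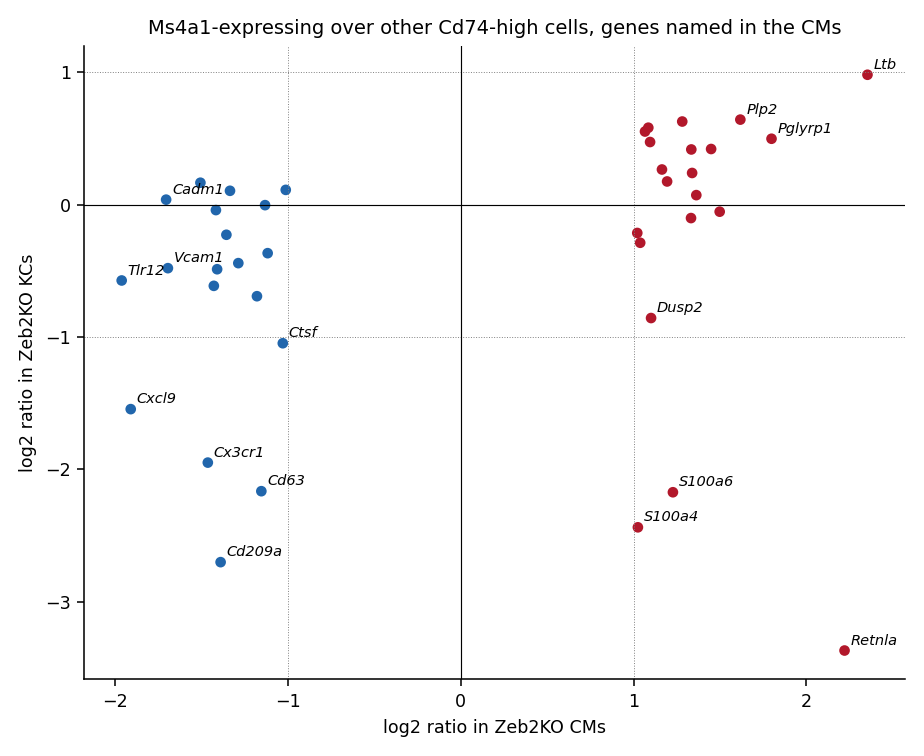
Log2 ratio of Ms4a1-expressing over other Cd74-high cells in Zeb2KO CMs (horizontal) and in Zeb2KO KCs (vertical), for the called and named CM genes that reach the floor of 20 CPM in KCs; red points were higher and blue points lower in CMs, and dotted lines mark a ratio of 1 in size. Ltb lies at 2.35 and 0.98, Cx3cr1 at -1.46 and -1.95, and S100a4, S100a6 and Retnla lie at the lower right, between -2.17 and -3.37 in KCs.

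Depth classes of the CMs were compared because Ms4a1 detection rose with depth, from 6.01% of cells under 5000 UMIs to 11.7% of those from 5000 to 10000 and 12.0% of deeper ones, though after thinning the shares were 4.81%, 6.52% and 5.89%. Within each class Ltb, Lsp1, Plp2, Mmp8 and Napsa stayed above the call and Cx3cr1, Cd81, Cd63 and Ms4a7 below it. Other calls, among them the following, did not hold in every class. From 5000 to 10000 UMIs, Gpnmb was at -0.88, Apoe at -0.99, Il18bp at -0.78, S100a11 at 0.93 and S100a6 and Ly6c2 at 0.86. Id2 was at 0.84 there, and in cells of 10000 UMIs or more Fcrls was at -0.91 and Lcn2 at 0.89. Ltb ranged from 1.86 to 3.32 over 22 alternative definitions and settings, and Cx3cr1 from -2.17 to -1.33. H2-Oa fell to 0.57 in cells under 5000 UMIs and S100a6 to 0.23 against all CMs without Ms4a1, and Cd209a went to -0.01 with only cells of 0.5% or more C1q in both groups. Other calls near the limit held less often. Of the 22 settings, S100a4 stayed past the call in 11, Top2a in 13, H2-Ob in 14, Kmo and Dnase1l3 in 15 and Id2 and Epcam in 17, beside 21 for H2-Oa and 19 for S100a6 and Cd209a. The changes of the CPM floor cannot move a ratio, so they count as held in each of these numbers.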

How the data were processed

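Macs were profiled on the 10x Genomics platform with 3′ counting, 1 library per tissue and genotype. The authors deposited raw UMI counts per gene and cell, made with Cell Ranger against mm10. The study's later filtering of cells and its removal of doublets were not applied, and no doublet caller was run. UMIs were summed over the cells of a group and scaled to CPM, with a pseudocount of 1, a floor of 20 CPM in the higher group and a call at a log2 ratio of 1. Intervals are exact 95% Poisson (sums) and Clopper-Pearson (shares) and cover counting error only. The interval of a ratio is the exact conditional binomial interval computed from both sums. No test was run, since each group was 1 library. The call rule, tried on simulated data for the same comparison over 4759 genes, recovered 100% of 200 genes changed by known folds. Each of those folds was larger than the fold of a call, so near-full recovery was to be foreseen. The simulation held counting noise only and no spread between cells, so it does not cover calls that rest on few cells. The members and the gene lists were chosen with earlier results of these data known. Named genes were list members that were called or given as examples, and the 20 highest and 20 lowest ratios of genes at 50 CPM or more. Rule genes, mitochondrial, ribosomal, immunoglobulin and sex-linked genes and unnamed models were kept out of that choice. From 18 to 46 cell barcodes of each of the other libraries recurred in the Zeb2KO CMs. Immunoglobulin and T cell receptor constant genes of the lists that were missing from the table were not used here. Alternatives included TMM factors (edgeR 4.0.16). Python 3.11.15, numpy 2.4.6, pandas 2.3.3 and scipy 1.17.1 were used.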

Additional observations from a re-analysis of the deposited data

Results flagged for a closer look

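A set of 3 genes stood on opposite sides in CMs and KCs, each past a log2 ratio of 1 in size. The difference between the tissues was not tested, since each tissue was 1 library. S100a4 had a log2 ratio of Ms4a1-expressing over other Cd74-high cells of 1.02 in CMs and -2.44 in KCs, where it measured 4.68 and 29.7 CPM. S100a6, its neighbour in the same gene cluster, had ratios of 1.23 and -2.17, with 11.6 and 55.7 CPM in KCs. Retnla had ratios of 2.22 and -3.37, with 10.9 and 122 CPM in KCs, and in CMs 28.5% of its UMIs in the Ms4a1-expressing cells came from 1 cell. The CM side did not hold in every setting: with 1% Cd74 required of both groups Retnla was at 0.78 and S100a4 at 0.92, and against all CMs without Ms4a1 Retnla was at 0.67, S100a4 at 0.32 and S100a6 at 0.23. In KCs 644 of the 1308 Ms4a1-expressing cells were under 1% Cd74 and no comparison cell was. With 1% Cd74 required of both KC groups the ratios were -2.14 for S100a4, -1.69 for S100a6 and -4.24 for Retnla.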

How the results depend on the processing

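No paired analysis was possible because each group was 1 library and the result comes from no test. Over 22 alternative definitions and settings, 66 of 72 called genes that the text or its plots follow kept their sign throughout. Of the 72, 30 kept a log2 ratio of 1 or more in size throughout. That count looks at the ratio alone, so a gene under 50 CPM counts as kept at that floor though it is not called there. Not all 22 were separate checks. Changing the CPM floor cannot move a ratio, and a C1q limit of 2 UMIs chose the same 448 and 1354 cells as no C1q limit. Of the 22 settings, a C1q share of 0.5% in both groups and leaving out the highest cell of each gene were chosen after seeing the data. So was 1% Cd74 in both groups of the KCs and SMs, which in SMs gave 569 higher and 571 lower genes, with 60 cells in the comparison group. The number of calls moved by more than 1.5 times from 156 (87 higher, 69 lower) with a floor of 5 CPM (311, 180 higher and 131 lower) and of 50 CPM (72, 38 and 34). It moved likewise against all CMs without Ms4a1 (437, 173 and 264, with 67 of the higher and 41 of the lower genes shared) and in cells under 5000 UMIs (875, 332 and 543), where the groups held only 61 and 230 cells. With 2 or more Ms4a1 UMIs required it was 255, of which 134 lower, and with 1% Cd74 required of both groups 119 were lower.

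The epithelial genes turned sign most often. Phgr1, Guca2a and Lgals4 were at -0.089, -0.20 and -0.28 with 2 or more Ms4a1 UMIs, at -0.21, -0.10 and -0.14 with 1% Cd74 in both groups, at -0.76, -0.27 and -1.08 against all CMs without Ms4a1, at -0.10, -0.12 and -0.030 after a filter of 3 MADs, and at -0.39, -1.58 and -0.34 in cells under 5000 UMIs. From 5000 to 10000 UMIs Phgr1 was at -0.11 and Lgals4 at -0.89. Guca2a was at -0.63 without cells holding markers of other cell types. Phgr1 and Guca2a were at -0.13 and -0.19 with 0.5% C1q in both groups and at -0.087 and -0.11 without the highest cell. In cells under 5000 UMIs Top2a (-3.35), Grasp (-0.19) and Retnla (-0.74) turned too. TMM factors gave 78 higher and 74 lower genes.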

Other observations

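Lysosomal genes, which serve the digestion of engulfed material, were slightly lower in the Ms4a1-expressing CMs: of 27 considered, 2 were called lower (Cd63 and Ctsf), none higher, and 2 were above 0, where 1.4% of all genes were called lower, with a median log2 ratio of -0.30 beside 0.02 over all genes. Ctsf, a cathepsin, measured 18.3 CPM, against 38.4 in the other Cd74-high CMs and 38.5 in WT. Genes of phagocytosis and of the clearance of dying cells had a median of -0.41, with 1 of 12 called lower, Gpnmb. All 13 glycolysis genes considered were above 0, with a median of 0.21 and none called, which is also the median of the ribosomal protein genes. Of 20 redox and iron genes 1 was called higher, where 1.76% of all genes were, the peroxiredoxin gene Prdx6, at 257, 114 and 80.5 CPM, a log2 ratio of 1.16 that stayed at 1.02 or more in all 22 alternatives. Dusp2, a phosphatase that restrains MAP kinases, was the called member of 24 immediate early and heat shock genes, read against the same share, at 371, 173 and 163 CPM (1.10).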
